A study of Mus musculus with 8 samples.

Results

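Insulin signalling and GLUT4 traffic in quadriceps muscle were followed through 34 genes, from the insulin receptor to Akt, mTOR and the vesicles that carry the glucose transporter GLUT4. The members were taken by gene symbol from a list of the pathway, and all 34 were found among the 43239 distinct names of the files. Each was above 0 in all 8 libraries, and all 34 passed the filter of a mean of at least 1 FPKM, which left 11878 genes to test. FPKM counts the fragments of a gene per kilobase of its transcript and per M fragments mapped (M for mega), so levels of different genes can be set side by side. RNA of 8 female mice aged 6 months was sequenced, 1 library per mouse, with food and water freely available and no insulin or exercise treatment in the labels. The WT group held 4 wild type mice and the KO group 4 mice with the genotype Mss51-/-, in which the gene of a mitochondrial muscle protein is meant to be lost. Strain and the way the allele was made are not given in the sources used here. The series title sets the question of muscle metabolism and glucose homeostasis.

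RNA of the targeted gene was higher in the libraries labelled KO, and each group below is the one the label names. The labels give a genotype and no transcript level. Whether the allele leaves or raises this RNA, or the labels are exchanged, was not tested. Mss51 stood at 22.9 to 37.0 FPKM in the libraries labelled WT and at 201 to 340 FPKM in those labelled KO (two-sided exact permutation p = 0.0286, the smallest that 4 against 4 allows). Among muscle markers Ckm, the muscle creatine kinase, was at 9230 to 12716 FPKM, and 5 of the 7 muscle fibre markers found were above 0 in every library. The other two carry zeros, Tnnt3 in 4 libraries and Atp2a1 in 7, and the fast myosin Myh4 was listed at 0 in all 8, so a 0 in these files can be a failed estimate. The rough depth, read from the most crowded low values, was 37.6 to 53.7 M fragments per library. KO replicate 1 stood apart from KO replicates 2 to 4 in 3 of 8 slow and oxidative fibre markers: Mb (myoglobin), Myl2 (a slow myosin light chain) and Myh2 (a myosin heavy chain of oxidative fast fibres) were above the WT range in KO replicates 2 to 4 and inside it in KO replicate 1. For the other 5, among them the slow myosin Myh7 (26.4 to 36.4 FPKM in KO replicates 2 to 4, 23.0 to 41.5 FPKM in the WT group), at least 1 of KO replicates 2 to 4 lay inside the WT range. The sum of the 8, most of it Mb, was 2595 FPKM in KO replicate 1, 5486 to 6194 in the other KO libraries and 2269 to 2757 in the WT group. Fold changes without KO replicate 1 are plotted for each member and given in the text for several. The locus in the files reaches past the annotated gene by several kilobases or more for Slc2a4, Igf1r, Irs2, Gsk3a, Rac1, Rab10, Stx4a, Tsc2 and Rps6kb1, whose values are less certain for that.

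Insulin binds a receptor tyrosine kinase that phosphorylates the adaptors IRS1 and IRS2. These recruit PI 3-kinase, whose lipid product brings Akt to the membrane, where PDK1 and mTOR complex 2 activate it. In muscle Akt phosphorylates the Rab GTPase-activating proteins TBC1D4 and TBC1D1, which frees Rab proteins to move GLUT4 vesicles to the surface, and it also inhibits GSK3 and releases mTOR complex 1 from the TSC complex. Much of this control runs through phosphorylation and membrane traffic, which RNA levels do not measure.

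No member passed the test in the fit over all genes, where 6 of 11878 genes (0.0505%) had a limma adjusted p under 0.05. The smallest adjusted p among the members was 0.353, that of Grb14. At an unadjusted p under 0.05, 1 of 34 members was higher in the KO group (Grb14, against 7.5% of all genes tested) and 2 were lower (Irs1 and Tsc1, against 2.76%). The WT and KO values overlapped for each of the 34, while 3.89% of all genes lay wholly higher and 1.61% wholly lower in the KO group. The median log2 fold change of the members, KO minus WT, was -0.05, beside 0.02 for all genes tested. It was positive for 10 members (against 54.4% of all genes) and negative for 24. For 28 of the 34 the 95% interval of the fold change stayed within 0.5 on the log2 scale in both directions. The exceptions were Grb14, Tbc1d4, Tbc1d1, Irs1, Irs2 and Rab13. For Irs1 the interval ran from -0.75 to -0.06. Without KO replicate 1, 1 member passed, Grb14, against 1.04% of 11873 genes. At an unadjusted p under 0.05, 2 members were then higher (Grb14 and Rab13, against 9.49%) and 3 lower (Irs1, Trib1 and Tbc1d1, against 4.37%). The fold change was then positive for 12 of 34 members, against 55.9% of all genes. The sign counts moved with the scaling of the libraries. With median-ratio scaling 9 of 34 members and 49% of all genes were positive. With libraries set to an equal sum of genes that no single entry dominates, 8 of 34 members and 37.1% of all genes were positive, and 0 members passed (0.0421% of all genes).

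**Figure D1:**
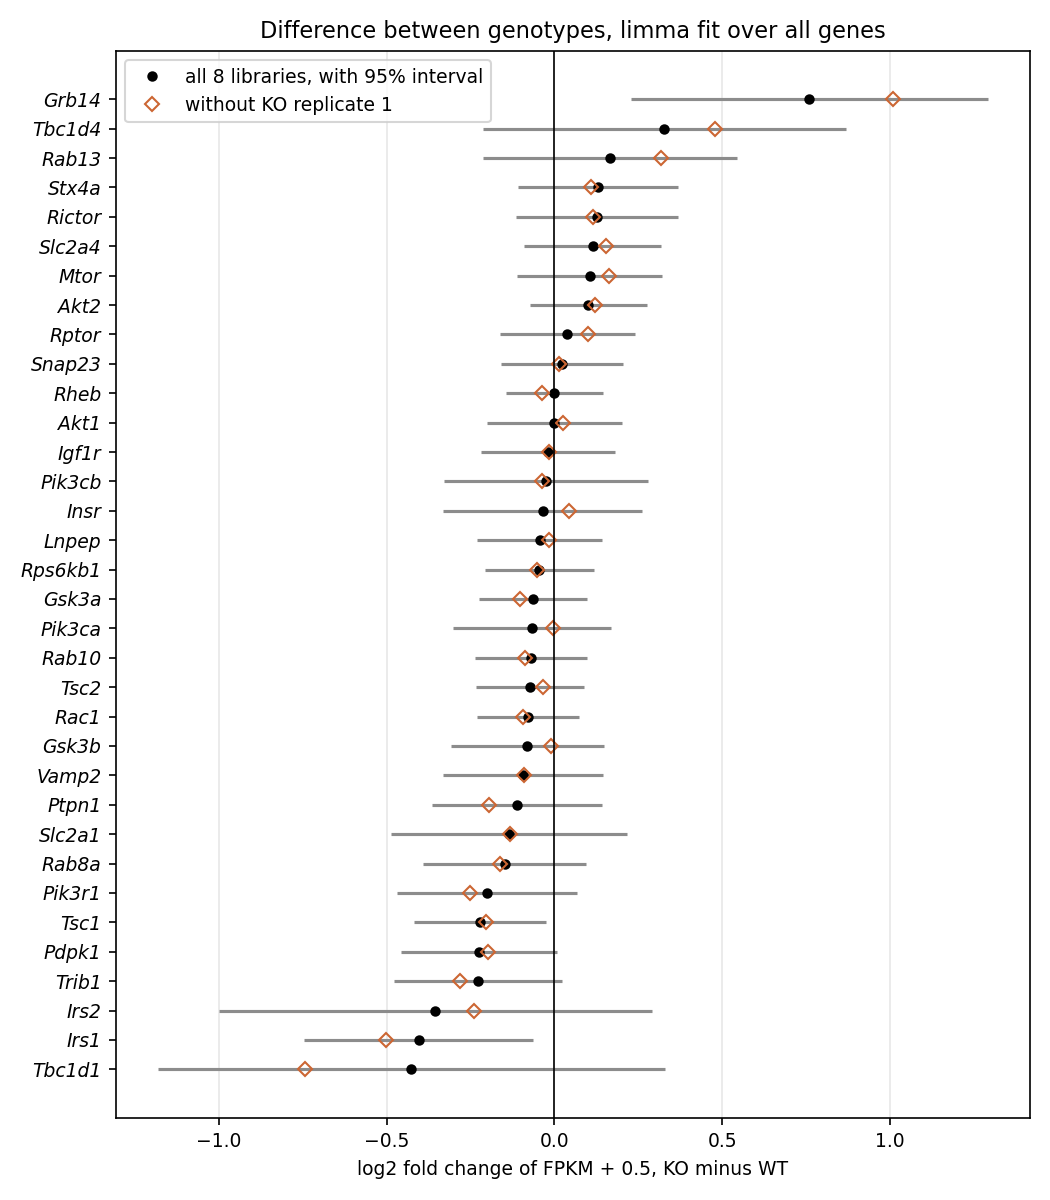
Log2 fold change of FPKM + 0.5 (x axis, KO minus WT) for each of the 34 genes, with points and grey 95% intervals from all 8 libraries and open diamonds for the fit without KO replicate 1. Most genes lie within 0.25 of 0 (29 of 34), and Grb14 and Tbc1d1 are at the ends, at 0.76 and -0.43.

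Slc2a4, the gene of the insulin-responsive transporter GLUT4, was the highest of the members at a mean of 416 FPKM over the 8 libraries. It stood at 458, 384, 384 and 373 FPKM in WT replicates 1 to 4 and at 396, 460, 414 and 458 FPKM in KO replicates 1 to 4. The groups overlapped, with WT replicate 1 as high as the highest KO libraries. The means were 399.9 ± 39.1 and 432 ± 32.2 FPKM (SD, n = 4), a log2 fold change of 0.11 with a 95% interval from -0.09 to 0.32 (limma adjusted p = 0.726), and -0.02 with quantile normalization and -0.10 after rescaling to TPM. Slc2a1, the gene of GLUT1, which serves basal uptake, was far lower, at 8.01, 5.57, 7.66 and 7.10 FPKM in WT replicates 1 to 4 and 6.32, 5.45, 5.60 and 8.39 FPKM in KO replicates 1 to 4. Its groups overlapped throughout (log2 fold change -0.13, 95% interval -0.49 to 0.22).

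Of the summed FPKM of 9 glucose transporter genes, Slc2a4 made up 93.8 ± 0.501% for WT and 94.1 ± 0.523% for KO libraries. With a share this high, changes in the minor members barely show in it. Slc2a8 followed at 2.23 ± 0.318% and 2.04 ± 0.141%, then Slc2a1 at 1.66 ± 0.219% and 1.40 ± 0.261%, while Slc2a3 was at 0.347 ± 0.111% and 0.557 ± 0.323%. GLUT4 is also made by fat cells, and GLUT1 is abundant in endothelial cells. All 6 adipocyte markers were found, none at 0, with a summed FPKM of 326 to 429 among WT mice and 283 to 456 among KO mice. Most of that sum is Cfd, and 5 of the 6 had a negative fold change, with a median of -0.41 and none past the test. Lep (leptin) stood at 2.29 to 4.40 FPKM in the WT group, 2.79 FPKM in KO replicate 1 and 0.324 to 0.577 FPKM in KO replicates 2 to 4 (log2 fold change -1.59, limma adjusted p = 0.347). The 6 endothelial markers summed to 71.4 to 97.1 FPKM in WT mice, beside 62.3 to 121 FPKM in KO mice. The 6 erythroid markers summed to 509 to 1334 FPKM against 653 to 3172 FPKM, the highest in KO replicate 1, and none of either list was at 0. Their part in the levels of both transporters was not tested. In bulk tissue, fewer cells of a type and less RNA per cell cannot be told apart.

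**Figure D2:**
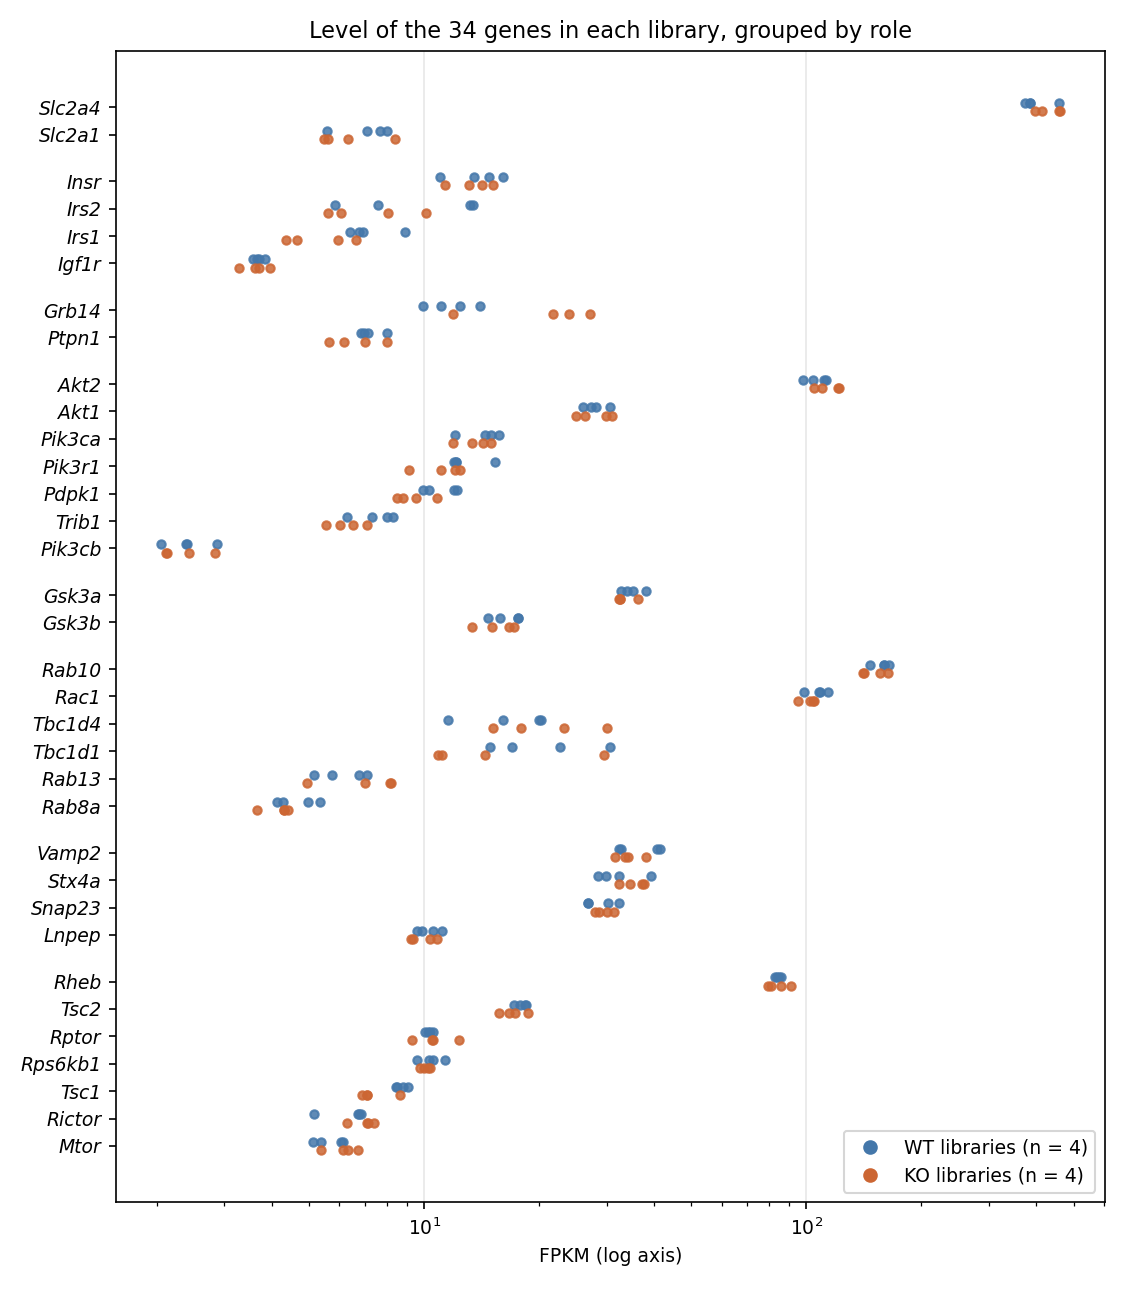
FPKM on a log axis (x) of each of the 34 genes in each library, WT in blue and KO in orange, grouped by role. Levels span from Pik3cb at a mean of 2.40 FPKM to Slc2a4 at 416 FPKM, while the 2 groups overlap for every gene.

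Among receptors, Insr, the insulin receptor, was 3.01 to 4.33 times as high as Igf1r, the receptor of IGF1, in every library. Insr stood at 14.8, 11.0, 16.1 and 13.5 FPKM in WT replicates 1 to 4 and at 11.3, 13.1, 14.2 and 15.1 FPKM in KO replicates 1 to 4. The groups overlapped almost fully, and the log2 fold change of -0.03 had a 95% interval from -0.33 to 0.26. Igf1r was one of the steadiest members in the WT group, at 3.56 to 3.82 FPKM, with 3.28 to 3.94 FPKM in the KO group.

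The adaptor genes had lower means in the KO group, neither past the test. Irs1 encodes the adaptor that links the receptor to PI 3-kinase in muscle. It stood at 8.90, 6.40, 6.76 and 6.93 FPKM in WT replicates 1 to 4 and at 6.61, 4.63, 5.95 and 4.35 FPKM in KO replicates 1 to 4. KO replicate 1 lay inside the WT range and the other KO libraries below it. The means were 7.25 ± 1.12 and 5.38 ± 1.08 FPKM (SD, n = 4), a log2 fold change of -0.40 with an SE of 0.15 (limma adjusted p = 0.424), and -0.50 without KO replicate 1 (limma adjusted p = 0.181). Irs2, the partner adaptor, stood at 13.4, 5.85, 13.2 and 7.55 FPKM in WT replicates 1 to 4 and at 5.60, 6.06, 10.1 and 8.05 FPKM in KO replicates 1 to 4. It varied more within the groups than between them: the coefficient of variation was 38.7% in the WT group, and the log2 fold change of -0.36 had a 95% interval from -0.999 to 0.29. The files hold a further entry named Irs2 at the same locus, at lower values. With both summed the log2 fold change was -0.22. Single libraries moved it as much, to -0.57 without WT replicate 2 and to -0.19 without WT replicate 1.

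Grb14, an adaptor that binds the active insulin receptor and inhibits its kinase, had the largest fold change among the members. It stood at 14.0, 11.0, 9.95 and 12.4 FPKM in WT replicates 1 to 4 and at 11.9, 27.1, 23.9 and 21.8 FPKM in KO replicates 1 to 4. KO replicates 2 to 4 lay above every WT library, and KO replicate 1 lay inside the WT range. The means were 11.9 ± 1.76 and 21.2 ± 6.58 FPKM (SD, n = 4), a log2 fold change of 0.76 with an SE of 0.23 and a 95% interval from 0.23 to 1.29, which did not pass (limma adjusted p = 0.353). Without KO replicate 1 it passed, at 1.01 (limma adjusted p = 0.0136). With any other single library left out it did not pass (limma adjusted p from 0.395 to 0.672). Each library was left out in turn, and KO replicate 1 was singled out for its values. The same KO libraries that were high in Grb14 were high in Mb, Myl2 and Myh2, 3 of the 8 oxidative fibre markers given above. Of those 8 markers 7 had a positive fold change, none was at 0 and none passed the test, with Myh2 at 96.6 to 156 FPKM in the WT group, 125 in KO replicate 1 and 391 to 494 FPKM in KO replicates 2 to 4. The part of fibre makeup in the Grb14 values was not tested. The phosphatase gene Ptpn1, whose product PTP1B removes phosphate from the receptor, was at 6.84 to 8.01 FPKM for WT and 5.63 to 7.97 FPKM for KO libraries (log2 fold change -0.11, and -0.19 without KO replicate 1).

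Setting KO replicate 1 aside, 5 members had KO replicates 2 to 4 wholly outside the WT range: Grb14 and Mtor above it and Irs1, Tbc1d1 and Gsk3a below it. Among all genes tested, 9.35% lay above and 4.51% below in this way, so 2 of 34 above and 3 of 34 below is not far from the background. KO replicate 1 was inside the WT range for 23 of 34 members (67.6%) and for 58.2% of all genes.

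**Figure D3:**
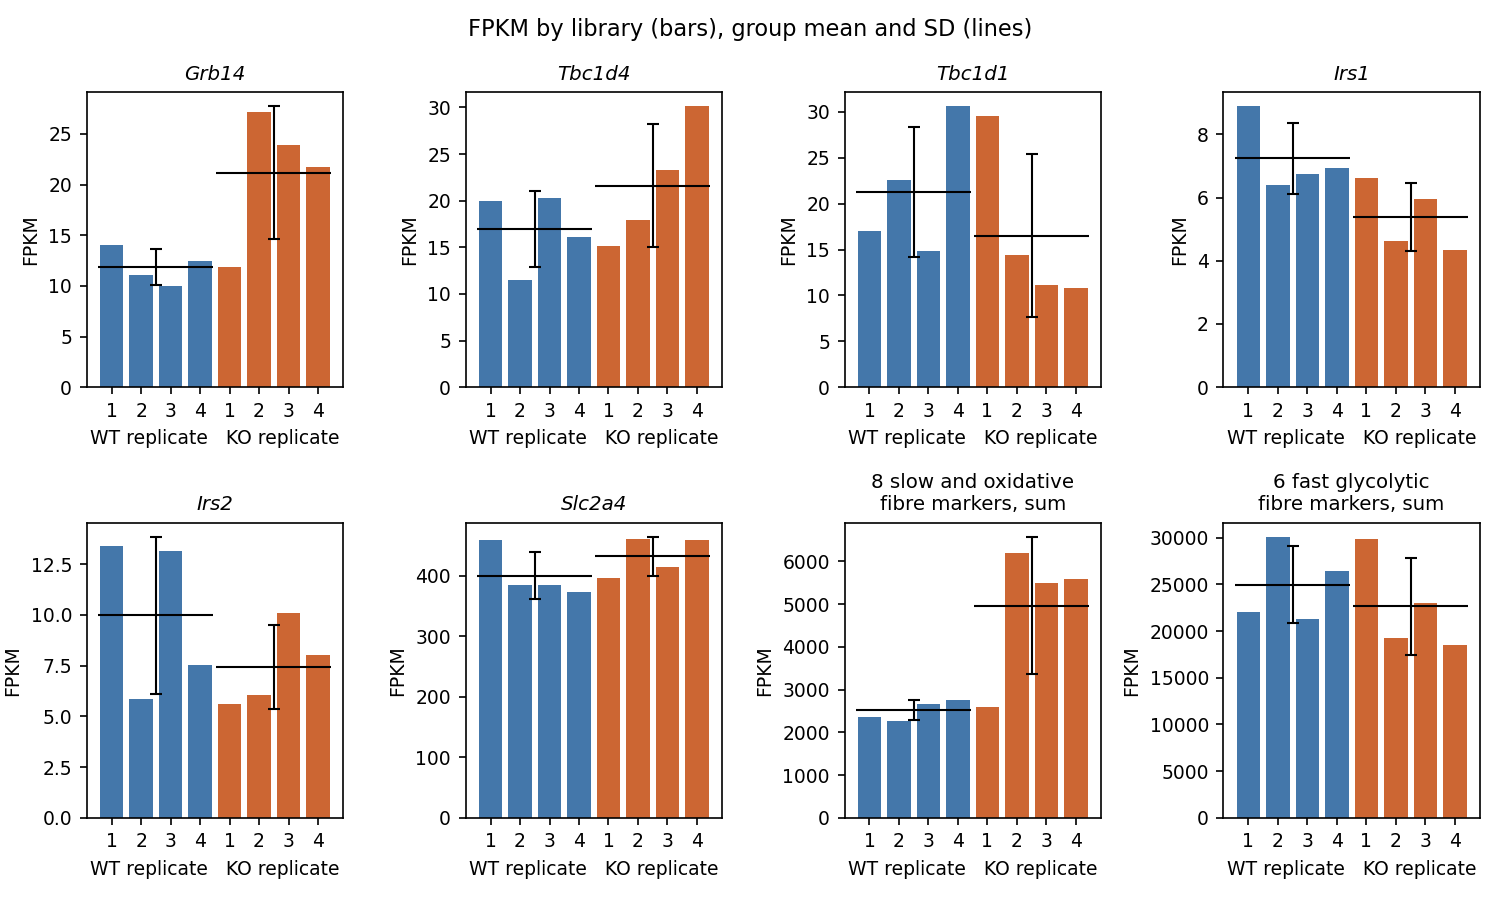
FPKM by library as bars, with the group mean and SD as black lines, for 6 genes and for the summed FPKM of 8 slow and oxidative and of 6 fast glycolytic fibre markers. Grb14 and the sum of the oxidative markers, carried by 3 of the 8, are high in KO replicates 2 to 4 and at WT values in KO replicate 1, while Irs2 is high in WT replicates 1 and 3.

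The sequence before the start site is shown for Grb14, Tbc1d1 and Irs1, the 3 members with the largest fold changes, and for Tbc1d4 as the counterpart of Tbc1d1. Each run is the 250 bases upstream of a RefSeq start on GRCm38.p6 (the assembly of mm10), 5′ to 3′ along the gene, with capitals marking the GC box GGGCGG on either strand, a match for factors of the Sp family. The windows are chr2:65022767-65023016 (minus strand) for Grb14, chr1:82291440-82291689 (minus strand) for Irs1, chr14:101609192-101609441 (minus strand) for Tbc1d4 and chr5:64230107-64230356 (plus strand, an internal start) for Tbc1d1. The Grb14 window precedes the RefSeq start, which lies inside the outer bounds of the gene in GENCODE (64912476 to 65024987), where a noncoding transcript begins further upstream.
Grb14: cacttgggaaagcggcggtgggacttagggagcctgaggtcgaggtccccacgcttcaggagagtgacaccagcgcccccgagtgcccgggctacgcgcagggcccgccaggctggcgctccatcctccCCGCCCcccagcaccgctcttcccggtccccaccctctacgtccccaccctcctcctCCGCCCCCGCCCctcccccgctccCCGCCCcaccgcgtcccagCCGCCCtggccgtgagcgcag
Irs1: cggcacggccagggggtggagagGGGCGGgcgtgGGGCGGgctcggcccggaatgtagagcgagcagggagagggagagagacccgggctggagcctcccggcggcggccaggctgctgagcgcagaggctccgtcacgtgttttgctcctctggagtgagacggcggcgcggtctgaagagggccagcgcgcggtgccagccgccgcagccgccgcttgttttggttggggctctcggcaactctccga
Tbc1d4: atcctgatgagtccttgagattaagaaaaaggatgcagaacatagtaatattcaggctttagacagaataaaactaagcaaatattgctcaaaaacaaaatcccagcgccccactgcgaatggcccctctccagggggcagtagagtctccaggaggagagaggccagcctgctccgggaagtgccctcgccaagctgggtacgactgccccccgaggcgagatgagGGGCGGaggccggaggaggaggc
Tbc1d1: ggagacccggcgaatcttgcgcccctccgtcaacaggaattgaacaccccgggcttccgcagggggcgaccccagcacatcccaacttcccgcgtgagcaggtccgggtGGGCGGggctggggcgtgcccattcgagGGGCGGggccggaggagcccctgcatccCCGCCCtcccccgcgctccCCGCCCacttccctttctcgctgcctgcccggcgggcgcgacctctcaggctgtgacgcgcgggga
The GC box matched 5 times in Grb14, 4 times in Tbc1d1, 2 times in Irs1 and 1 time in Tbc1d4, neighbouring matches included. The windows of Grb14, Tbc1d1 and Irs1 are rich in G and C, at 75.2%, 73.6% and 72.4%, against 54.8% for Tbc1d4 and a median of 52.4% over 32851 RefSeq windows of this length. Of the members, 29 had a window, and the GC box was in 22 of them, against 32.7% of all windows. The shares of all windows count each window singly and take in genes not expressed here. Shares among the genes tested were not computed, so these counts are not set against a matched background. The E box CANNTG, bound by MyoD and related factors, was in 16 of 29 members, against 66.2% of all windows. In the 4 windows printed it was found 1 time each in Grb14 and Irs1 and not in Tbc1d4 and Tbc1d1. Tbc1d1 is counted among the 16 through a window that is not printed. Of the 29 members, 13 held CCAAT (33.8% of all windows), 3 held AGGTCA, which many nuclear receptors bind (14.0%), and 2 held TATAAA (12.4%), each searched on both strands. A member with several start sites was counted if any window held the motif. None of these last 3 motifs was in the 4 windows printed.

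Between PI 3-kinase and Akt, 7 members were measured and none passed the test. Pik3r1, the regulatory subunit of PI 3-kinase, stood at 12.0, 12.1, 15.3 and 12.1 FPKM in WT replicates 1 to 4 and at 12.4, 9.14, 11.0 and 12.0 FPKM in KO replicates 1 to 4. WT replicate 3 was high and KO replicate 2 low, with the others close together (log2 fold change -0.20, limma adjusted p = 0.603). The catalytic subunit genes were at 12.1 to 15.7 FPKM (Pik3ca) and 2.05 to 2.87 FPKM (Pik3cb) in the WT group, and at 11.9 to 14.9 and 2.11 to 2.84 FPKM in the KO group. Pdpk1, which encodes the kinase PDK1 that activates Akt, stood at 12.0, 9.91, 12.2 and 10.3 FPKM in WT replicates 1 to 4 and at 8.80, 9.54, 8.49 and 10.8 FPKM in KO replicates 1 to 4. Only KO replicate 4 reached into the WT range (log2 fold change -0.23, 95% interval -0.46 to 0.01, limma adjusted p = 0.502).

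Akt2, the Akt isoform tied to glucose uptake, was 3.41 to 4.88 times as high as Akt1 in every library. Akt2 stood at 97.9, 113, 104 and 111 FPKM in WT replicates 1 to 4 and at 109.7, 105, 122 and 121 FPKM in KO replicates 1 to 4. Akt1 stood at 27.2, 26.0, 30.6 and 28.2 FPKM against 26.4, 29.9, 24.9 and 30.9 FPKM. Neither gene separated the groups: the 95% interval ran from -0.07 to 0.28 for Akt2 and from -0.20 to 0.20 for Akt1. Trib1, a pseudokinase scaffold of the Tribbles family, stood at 7.97, 8.29, 6.28 and 7.28 FPKM in WT replicates 1 to 4 and at 7.09, 5.52, 6.02 and 6.52 FPKM in KO replicates 1 to 4. Every KO value lay below WT replicates 1, 2 and 4, while KO replicates 1 and 4 lay above WT replicate 3 (log2 fold change -0.23, limma adjusted p = 0.526).

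The kinase genes downstream of Akt that restrain glycogen synthase, Gsk3a and Gsk3b, differed in level, with Gsk3a higher in all 8 libraries. Gsk3a was at 32.8 to 37.9 FPKM in WT mice, beside 32.4 to 36.2 FPKM in KO mice. Gsk3b was at 14.7 to 17.6 FPKM and 13.3 to 17.1 FPKM. The log2 fold changes were -0.06 and -0.08, and -0.10 for Gsk3a without KO replicate 1.

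The 2 Akt targets that hold GLUT4 vesicles back, Tbc1d4 and Tbc1d1, spread widely inside the groups, with a coefficient of variation of 24.2% and 33.1% for WT and 30.6% and 53.8% for KO libraries. Tbc1d4, also known as AS160, lies on chromosome 14, as Mss51 does, at 101442360 to 101609191 of mm10, against 20482867 to 20496901 for Mss51. It stood at 19.95, 11.5, 20.3 and 16.1 FPKM in WT replicates 1 to 4 and at 15.2, 17.9, 23.2 and 30.1 FPKM in KO replicates 1 to 4. KO replicates 3 and 4 lay above every WT library and the other KO libraries inside the WT range (log2 fold change 0.33, 95% interval -0.21 to 0.87, limma adjusted p = 0.691). It was 0.48 without KO replicate 1, 0.15 without KO replicate 4 and 0.16 without WT replicate 2. Tbc1d1 stood at 17.0, 22.6, 14.9 and 30.6 FPKM in WT replicates 1 to 4 and at 29.6, 14.4, 11.2 and 10.8 FPKM in KO replicates 1 to 4. KO replicates 2 to 4 lay below every WT library, and KO replicate 1 was near the top. The log2 fold change was -0.43 with a 95% interval from -1.18 to 0.33 (limma adjusted p = 0.718). Without KO replicate 1 it was -0.74 (limma adjusted p = 0.223), and without WT replicate 4 it was -0.24. The 3 libraries with the highest Tbc1d1, WT replicates 2 and 4 and KO replicate 1, were also the 3 with the highest summed FPKM of fast glycolytic fibre markers (30118, 26431 and 29862, against 18510 to 23015 in the others). That sum takes 5 of 6 markers, with Myh4 at 0 in every library, and most of it is the markers Pvalb and Tnni2. These and Actn3 had the same 3 libraries on top, while Mylk2 and Gpd1 did not. The match was noted after the values were seen, and the share of all genes with it was not computed. The part of fibre makeup in the Tbc1d1 values was not tested.

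Of the 3 Rab GTPase genes among the members, Rab10 was by far the highest, at 146 to 164 FPKM among WT mice and 141 to 164 FPKM among KO mice. It made up 91.9% to 94.4% of the summed FPKM of Rab10, Rab8a and Rab13 over the 8 libraries. This share leaves out the Rab genes listed with the other pathway genes, among them Rab28 at a mean of 85.1 FPKM. Rab8a stood at 5.34, 4.12, 4.27 and 4.97 FPKM in WT replicates 1 to 4 and at 4.30, 4.39, 3.65 and 4.30 FPKM in KO replicates 1 to 4. Its KO values lay within or below the lower part of the WT range (log2 fold change -0.15, limma adjusted p = 0.688). Rab13, which acts on GLUT4 in muscle cells, was at 5.14 to 7.07 FPKM in WT mice, beside 4.93 to 8.20 FPKM in KO mice (log2 fold change 0.17). Its fold change was 0.32 without KO replicate 1 (limma adjusted p = 0.323) and 0.09 without WT replicate 1, KO replicate 2 or KO replicate 3. Rac1, the GTPase that remodels actin under the membrane for GLUT4 arrival, was at 98.8 to 114 FPKM and 95.3 to 104.5 FPKM (log2 fold change -0.08).

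The genes of vesicle cargo and membrane fusion stayed close between the groups. Lnpep, the aminopeptidase IRAP that travels with GLUT4, was at 9.55 to 11.1 FPKM for WT and 9.24 to 10.8 FPKM for KO libraries. The fusion proteins of the target membrane, Stx4a (syntaxin 4) and Snap23, were at 28.6 to 39.1 and 26.9 to 32.3 FPKM among WT mice and at 32.3 to 37.6 and 28.0 to 31.3 FPKM among KO mice. Vamp2, the vesicle partner of both, was at 32.4 to 41.5 FPKM in WT mice, beside 31.7 to 38.1 FPKM in KO mice. The log2 fold changes of these 4 genes ran from -0.09 to 0.13, and their 95% intervals from -0.33 to 0.37. With no strand setting given, the values of Slc2a1, Irs1, Irs2, Gsk3a, Rac1, Rab10, Rptor, Tsc2 and Rps6kb1 are uncertain, since their exons overlap a gene on the opposite strand in the mm10 annotation.

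In the mTOR branch, Rheb, the GTPase that activates mTOR complex 1, was the highest, at 84.2 ± 1.18 FPKM for WT and 84.3 ± 5.28 FPKM for KO libraries (SD, n = 4). Mtor, the kinase itself, stood at 6.11, 5.12, 6.04 and 5.38 FPKM in WT replicates 1 to 4 and at 5.37, 6.31, 6.72 and 6.14 FPKM in KO replicates 1 to 4. KO replicate 1 was in the lower part of the WT range and the other KO libraries were just above it (log2 fold change 0.10, 95% interval -0.11 to 0.32, and 0.16 without KO replicate 1). Tsc1, which with Tsc2 forms the complex that turns Rheb off, stood at 9.08, 8.47, 8.45 and 8.82 FPKM in WT replicates 1 to 4 and at 7.09, 6.87, 8.65 and 7.08 FPKM in KO replicates 1 to 4. KO replicate 3 lay inside the narrow WT range and the other KO libraries below it (log2 fold change -0.22, SE 0.09, limma adjusted p = 0.436). Tsc2 was at 17.1 to 18.5 FPKM among WT mice and 15.7 to 18.6 FPKM among KO mice. Rptor and Rictor (of whose entries in the files the higher was used), the defining subunits of mTOR complexes 1 and 2, were at 10.02 to 10.6 and 5.14 to 6.85 FPKM in the WT group. In the KO group they were at 9.27 to 12.3 and 6.30 to 7.37 FPKM. Rps6kb1, the ribosomal S6 kinase that mTOR complex 1 activates, was at 9.58 to 11.3 FPKM in WT mice, beside 9.76 to 10.3 FPKM in KO mice.

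Ratios of partner genes within a library do not depend on how libraries are scaled, and 10 were compared. None passed the test: the smallest exact permutation p was 0.2, and after adjustment over the 10 the smallest was 0.905. With 4 against 4 the smallest p possible is 0.0286, so at least 6 of the 10 would have to reach it for any to pass after adjustment, and the lack of a call says little. Slc2a4 was 50.1 to 69.0 times Slc2a1 for WT and 54.6 to 84.4 times for KO libraries (exact permutation p = 0.2, two-sided). The ratio of Tbc1d1 to Tbc1d4 was 0.851, 1.96, 0.735 and 1.91 in WT replicates 1 to 4 and 1.95, 0.807, 0.480 and 0.359 in KO replicates 1 to 4. It spread more within each group than any other pair, and the difference of -0.78 on the log2 scale had an exact permutation p of 0.286. The ratio of Tsc1 to Tsc2 was 0.461 to 0.515 among WT mice and 0.369 to 0.518 among KO mice (exact permutation p = 0.229). Irs1 was 0.513 to 1.18 times Irs2, and Gsk3b was 0.367 to 0.537 times Gsk3a, with the groups fully interleaved.

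**Figure D4:**
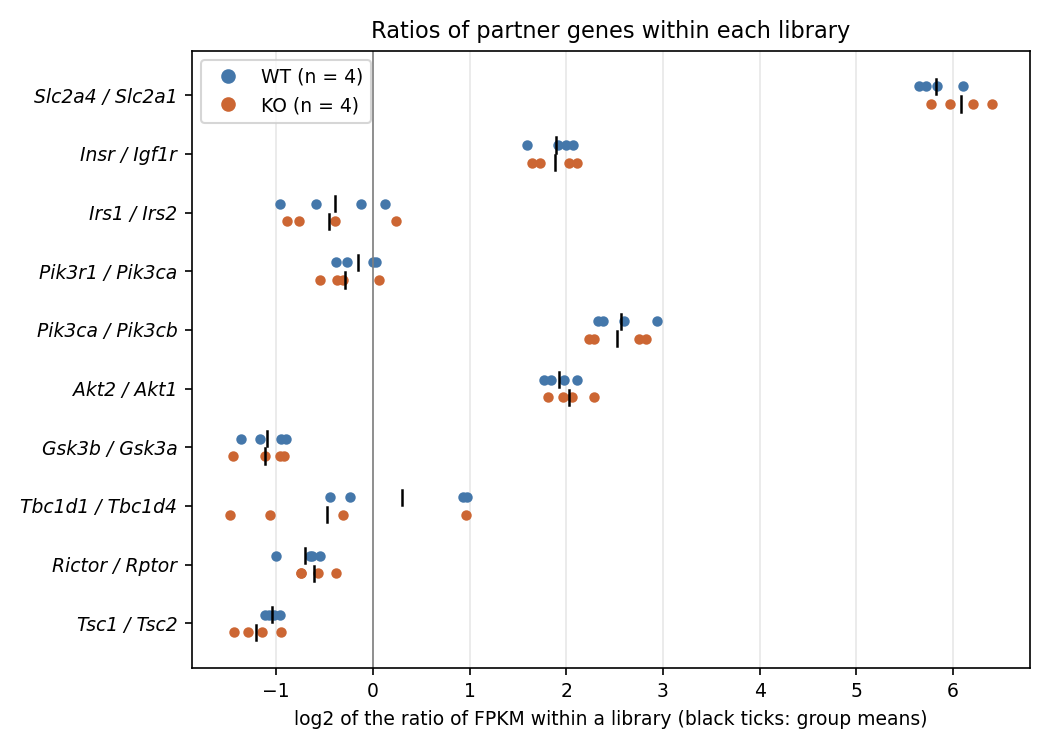
Log2 of the ratio of the FPKM of 2 genes within a library (x axis) for 10 pairs, WT in blue and KO in orange, with black ticks at the group means. Slc2a4 / Slc2a1, Pik3ca / Pik3cb, Akt2 / Akt1 and Insr / Igf1r lie above 0 in every library, and Tbc1d1 / Tbc1d4 spreads the most.

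Other genes of the pathway were read from a list of 108 symbols, of which 106 were found and 99 tested. None passed, against 0.0505% of all genes, and the smallest limma adjusted p was 0.353. Their median log2 fold change was -0.01, with 48 above 0 and 51 below, beside 0.02 for all genes. At an unadjusted p under 0.05, 5 of 99 were higher (7.5% of all genes) and 5 lower (2.76%). The values nearest to the threshold were those of Socs3, a feedback inhibitor of cytokine and insulin receptors, at 3.14 to 3.81 FPKM in WT mice, beside 2.22 to 2.97 FPKM in KO mice (log2 fold change -0.37). The groups of Socs3 did not overlap, nor did those of Ptpn11, the phosphatase SHP2 of growth factor signalling, at 21.3 to 23.0 against 18.2 to 20.7 FPKM (-0.16, limma adjusted p = 0.453). Of all genes tested, 1.61% lay wholly lower in this way, beside 3 of these 99, the last being Arhgef7. Of the 99, 1 lay wholly higher, Aspscr1, against 3.89%.

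Further genes with an unadjusted p under 0.05 came from several arms of the pathway, and none passed after adjustment. Vamp8, a vesicle fusion protein, stood at 19.7 ± 3.72 FPKM for WT and 25.0 ± 1.28 FPKM for KO libraries, and Cav3, the caveolin of muscle, at 37.8 ± 3.32 and 45.03 ± 4.56 FPKM (SD, n = 4). Ppp1r3a, which brings protein phosphatase 1 to glycogen, stood at 100.3 ± 9.48 and 80.8 ± 13.6 FPKM. In the nutrient arm of mTOR, Depdc5, a subunit of an inhibitor of the Rag GTPases, stood at 4.80 ± 0.867 and 3.53 ± 0.245 FPKM, and Lamtor2, of the complex that anchors mTOR to the lysosome, at 96.6 ± 9.88 and 114.8 ± 12.3 FPKM. Tbc1d7, a subunit of the TSC complex, stood at 16.9 ± 1.88 and 19.4 ± 0.386 FPKM. Named after their values were seen, Ppp1r3c, another glycogen-targeting subunit, stood at 143 ± 47.5 and 90.4 ± 39.03 FPKM (log2 fold change -0.70, limma adjusted p = 0.486), and Pfkfb2, a regulator of glycolysis whose entry in the files is shared with Gm29427, at 3.22 ± 0.694 and 4.40 ± 0.780 FPKM (0.40, limma adjusted p = 0.483). Genes after Akt that were not near the threshold included hexokinase Hk2, which traps glucose, at 80.9 ± 9.46 and 86.3 ± 4.90 FPKM, and the glycogen synthase Gys1, at 138 ± 10.8 and 143 ± 19.2 FPKM. The transcription factor Foxo1, which Akt keeps out of the nucleus, stood at 6.48, 5.13, 19.4 and 7.10 FPKM in WT replicates 1 to 4 and 5.34, 6.26, 9.44 and 9.93 FPKM in KO replicates 1 to 4.

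Some members had their highest values in the same libraries, across the genotypes. The 4 highest values of Irs2 were in WT replicates 1 and 3 and KO replicates 3 and 4. The same 4 libraries held the 4 highest values of Insr, Gsk3b and Tbc1d4, so that 3 of the other 33 members share them, beside 2.77% of all genes tested. The reverse, the 4 lowest values in these libraries, was seen in 0 of 34 members, 2 of 99 other pathway genes and 1.97% of all genes. Among the other pathway genes 6 of 99 had their 4 highest values there, including Grb10, a relative of Grb14, the kinase Sgk1 and Ddit4, the mTOR inhibitor REDD1. Ddit4 had the plainest split, at 17.9 and 20.1 FPKM in WT replicates 1 and 3 and 3.31 and 6.34 FPKM in WT replicates 2 and 4. In the KO group it stood at 19.7 and 18.5 FPKM in replicates 3 and 4 and at 4.03 and 6.47 FPKM in replicates 1 and 2. These libraries were singled out after the values were seen, the labels give nothing that sets them apart, and no test was made of them.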

How the data were processed

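Quadriceps RNA of 8 mice was sequenced as mRNA from oligo(dT) beads, after ribosomal RNA removal, per the labels' protocols. The authors deposited 1 table per library with a gene name, a locus and an FPKM value, per the file headers. Tools named in the submitters' processing notes, with no role for each, are Cufflinks 2.2.1, Bowtie2 2.2.6, TopHat2 2.1.1 and FastQC, on build mm10. Annotation, filters and strand setting are not given in the sources used here. Of 46036 entries, 2379 had no name and were left out. They carried 65.8% to 93.2% of the summed FPKM. For 344 repeated names the entry with the highest mean was used.

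Members and lists were chosen with earlier results of these data known. Genes averaging 1 FPKM or more entered a limma 3.58.1 fit (R 4.3.3) of log2(FPKM + 0.5), KO minus WT (genotype alone, mean trend, two-sided, Benjamini-Hochberg over 11878 genes, threshold 0.05). The added 0.5 understates fold changes of low genes. Ratios were compared by exact permutation over 70 assignments. Values in every library are given for 10 chosen members (Slc2a4, Slc2a1, Insr, Irs1, Irs2, Akt1, Akt2, Tbc1d1, Tbc1d4 and Mtor) and the 8 with the smallest p. Of the other pathway genes, the 8 with the smallest p and the chosen Hk2, Foxo1, Gys1 and Ddit4 are described, and 1 further chosen gene is not reported here. Genes outside this rule (Arhgef7, Aspscr1, Grb10, Sgk1, Ppp1r3c, Pfkfb2, Rab28) were named after their values were seen. Depth was estimated from 11433 single-transcript genes of GENCODE M21, taking the most crowded low value of FPKM times length as 1 fragment, so no counting interval is given. Promoter windows are RefSeq's on GRCm38.p6. The marker Acta1 and the pathway genes Rab4a and Stxbp3 were not analysed here. Alternatives were other pseudocounts, filters and scalings, robust variances, a replicate block, summed repeated entries and each library left out. The fit was tested on simulated data.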

Additional observations from a re-analysis of the deposited data

Results flagged for a closer look

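Of 116 groups of 4 libraries examined (members, named pathway genes, Mss51 and ratios), 10 held 1 library far from the other 3, where chance alone flags about 1 in 20. Among the members these were Slc2a4 in WT replicate 1 (458 FPKM), Pik3r1 in WT replicate 3 (15.3 FPKM), Rictor in WT replicate 4 (5.14 FPKM), Gsk3a in KO replicate 1 (36.2 FPKM), Rab8a in KO replicate 3 (3.65 FPKM) and Tsc1 in KO replicate 3 (8.65 FPKM). Among the other genes they were Depdc5 in WT replicate 1 (3.50 FPKM), Ptpn11 (23.0 FPKM) and Foxo1 (19.4 FPKM) in WT replicate 3, and Mss51 in KO replicate 1 (340 FPKM).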

How the results depend on the processing

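Over all alternatives no member passed the threshold except Grb14 without KO replicate 1 (0 to 1 members with each library left out), and 21 of 34 members never changed sign. Over all genes 6 passed, 119 after rescaling to TPM (an equal sum of named genes), 0 with a replicate block, and 4 to 124 with each library left out, of which 124 without KO replicate 1 and 10 without KO replicate 2. The equal number of replicates does not pair the mice: libraries with the same number correlated at -0.08 to 0.01, and 0 of 8 correlated best with their own number. With the block Mss51 stood at 3.07 (limma adjusted p = 0.0530). No other named call changed with the block.

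TPM rests on single entries, since 1 held 41.8% of the named sum of WT replicate 3 and 1 held 54.9% in KO replicate 4. It moved the median log2 fold change of all genes from 0.02 to -0.18 and of the members to -0.26. An equal sum of genes without such entries, chosen after seeing the data, gave -0.06 for all genes and -0.13 for the members, with 37.1% of all genes and 8 members above 0. Signs turned with TPM for Slc2a4 (-0.10), Akt2 (-0.11), Rab13 (-0.028), Stx4a (-0.080), Snap23 (-0.19), Mtor (-0.088), Rptor (-0.16), Rictor (-0.068), Tbc1d7 (-0.0064), Hk2 (-0.12), Gys1 (-0.18) and Ddit4 (-0.13). With the second rescaling they turned for Snap23 (-0.058), Rptor (-0.041), Gys1 (-0.047) and Ddit4 (-0.0036). Quantile normalization turned Slc2a4 (-0.023), Snap23 (-0.013) and Gys1 (-0.057), and median-ratio scaling Snap23 (-0.00077). For these small values the cause was not tested.

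With each library left out in turn, the log2 fold change crossed 0 for Insr (-0.14 to 0.042), Igf1r (-0.056 to 0.023), Pik3cb (-0.10 to 0.045), Akt1 (-0.049 to 0.052), Snap23 (-0.012 to 0.074), Rptor (-0.031 to 0.099), Rheb (-0.038 to 0.027), Foxo1 (-0.35 to 0.26), Gys1 (-0.019 to 0.12) and Ddit4 (-0.39 to 0.48). Among ratios it crossed for Insr/Igf1r (-0.11 to 0.064), Irs1/Irs2 (-0.29 to 0.11), Pik3ca/Pik3cb (-0.14 to 0.088), Gsk3b/Gsk3a (-0.11 to 0.093) and Rictor/Rptor (-0.00069 to 0.15). With a minimum mean of 5 FPKM the members Igf1r, Pik3cb and Rab8a had no value. Depth is known only roughly, so counting error was not separated from the spread between mice.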
